A study of Homo sapiens with 11 samples.

Results

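The genes described here are 38 heat-shock genes mainly of the cytosol and mitochondria, with their co-chaperones and the heat-shock factors. They were taken from 25590 human genes listed in the count table. They comprise 8 genes of the HSP70 family, 3 of the HSP110 family, 3 of the HSP90 family, 3 small heat-shock proteins, 2 mitochondrial chaperonin genes, 9 co-chaperones of HSP90, 3 co-chaperones of HSP70, 5 BAG proteins and 2 heat-shock factors. They were selected on function, without the DNAJ proteins, the cytosolic chaperonin and the main chaperones of the endoplasmic reticulum. The A2M* against PBS difference of these tumours was already known at the selection. Their differences between the groups are therefore given as a description, and counts of members past a limit are set beside the share of all genes past the same limit.

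The tumours had grown from PC-3, a single human prostate carcinoma cell line, which was injected with matrigel under the skin of male athymic nude mice (Crl:NU-Foxn1nu) aged 8 weeks. Such hosts lack T cells but keep other immune cells. From day 7 after the injection of the cells, mice received 5.6 mg of A2M*, the transformed form of alpha-2-macroglobulin, by repeated intraperitoneal injection. According to a figure legend of the paper, the experiment ended at day 31. The methods of the paper can also be read as 31 days of treatment after 7 days of growth. The labels give PBS as the treatment of the control group. RNA of 5 PBS tumours (T123 to T127) and 6 A2M* tumours (T128 to T132 and T112) was sequenced, 1 library per tumour, and only reads assigned to the human genome were used here. The libraries held between 16958500 and 35874400 counts. Levels are given as RPKM, the reads per kilobase of exon per 1e+06 counted reads, and differences as log2 fold changes of A2M* minus PBS with their standard error (SE) from edgeR. All levels are scaled to the human counts of each tumour. In whole tumours, a change within each tumour cell and a shift in the mix of tumour cells cannot be told apart.

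Heat-shock proteins are molecular chaperones, which hold unfolded proteins and help them to reach or regain their native shape. HSP70 binds short exposed stretches of a client and works in cycles of ATP hydrolysis that are started by DNAJ proteins and reset by nucleotide exchange factors such as HSP110 and the BAG proteins, whereas HSP90 takes over clients at a late stage of folding, with a series of co-chaperones that deliver the client or tune the ATPase. Many of these genes are activated by heat-shock factor 1, which binds heat-shock elements, repeats of the unit GAA in alternating orientation, and tumour cells are known to rely on high chaperone levels.

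The heat-shock elements of the promoter windows are shown first, since they are the sequence feature by which members of this gene group are known to be controlled together. RefSeq windows of 250 bases before to 50 bases after a transcription start (build GRCh38.p14) were found for 31 of the 38 members. No window was matched for HSF1, STUB1, FKBP4, BAG4, ST13, CRYAB and HSPA14. The motif searched was GAA and TTC in alternation, starting with either, with 2 bases of any kind between neighbouring units, over 3 units or, in a shorter form that lies inside the longer one, over 2 units. The 2 forms with 3 units are the reverse complements of each other and each form with 2 units is its own, so both strands were covered. Where RefSeq gives a gene several starts, these are numbered from the most upstream one. All 3-unit matches of the members are printed below with up to 30 bases each, 5′ to 3′ on the strand of the gene, with the matched bases in capitals. The 2-unit matches of HSPA1A and HSPA1B are added because these stress-inducible copies varied most between tumours among the abundant members.
HSPA8, 238 to 210 bases before its start: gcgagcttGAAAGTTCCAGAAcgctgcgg
HSPA8, 63 to 35 bases before its start: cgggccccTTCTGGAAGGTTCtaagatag
HSP90AA1, 96 to 68 bases before start 2: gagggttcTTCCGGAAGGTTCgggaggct
HSP90AB1, 173 to 145 bases before start 3: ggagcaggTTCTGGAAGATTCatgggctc
HSP90AB1, 120 to 92 bases before start 3: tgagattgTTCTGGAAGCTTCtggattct
HSPD1, 250 to 222 bases before start 2: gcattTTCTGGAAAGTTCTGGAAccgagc
CHORDC1, 63 to 35 bases before its start: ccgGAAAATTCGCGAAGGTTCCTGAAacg
HSPA1A, 117 to 88 bases before its start: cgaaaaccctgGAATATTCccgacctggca
HSPA1B, 116 to 87 bases before its start: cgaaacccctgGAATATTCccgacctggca

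In GRCh38.p14 these stretches lay at chr11:123062346-123062374 and chr11:123062171-123062199 on the minus strand for HSPA8, at chr14:102087112-102087140 on the minus strand for HSP90AA1, and at chr6:44247770-44247798 and chr6:44247823-44247851 on the plus strand for HSP90AB1. The stretch of HSPD1 was at chr2:197500062-197500090 on the minus strand, that of CHORDC1 at chr11:90223084-90223112 on the minus strand, that of HSPA1A at chr6:31815426-31815455 and that of HSPA1B at chr6:31827622-31827651, both on the plus strand. Matched by their letters to GRCh37, the stretches of HSP90AA1 and HSP90AB1 lay in introns of these genes as GENCODE draws their longer transcripts. Those of HSPA8 and HSPD1 overlapped an exon of a longer transcript of the same gene, and those of CHORDC1, HSPA1A and HSPA1B lay in no annotated gene.

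A 3-unit match was present in the windows of 5 of the 31 members (16.1%), namely HSPA8, HSP90AA1, HSP90AB1, HSPD1 and CHORDC1, and in those of 0.608% of the 27305 genes with RefSeq windows. A 2-unit match was present in 14 of 31 members (45.2%) and in 16.2% of these genes. Beside the 5 genes with the longer motif, HSPA1A, HSPA1B, HSPA1L, HSPA4L, HSPA9, HSPB1, HSPB8, BAG2 and STIP1 held the shorter one. The single match of HSPA1L is the same stretch of DNA as that of HSPA1A, since both genes start there in opposite directions. The genes for the mitochondrial chaperonin, HSPD1 and its lid HSPE1, also lie head to head, with the HSPE1 start 105 and 539 bases from the starts given for HSPD1. The match assigned to HSPD1 lay between the HSPE1 start and HSPD1 start 2. A match of letters is a description of the window and does not show binding. Units with other letters or other spacing were not searched, so a window without a match may still hold an element.

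**Figure D1:**
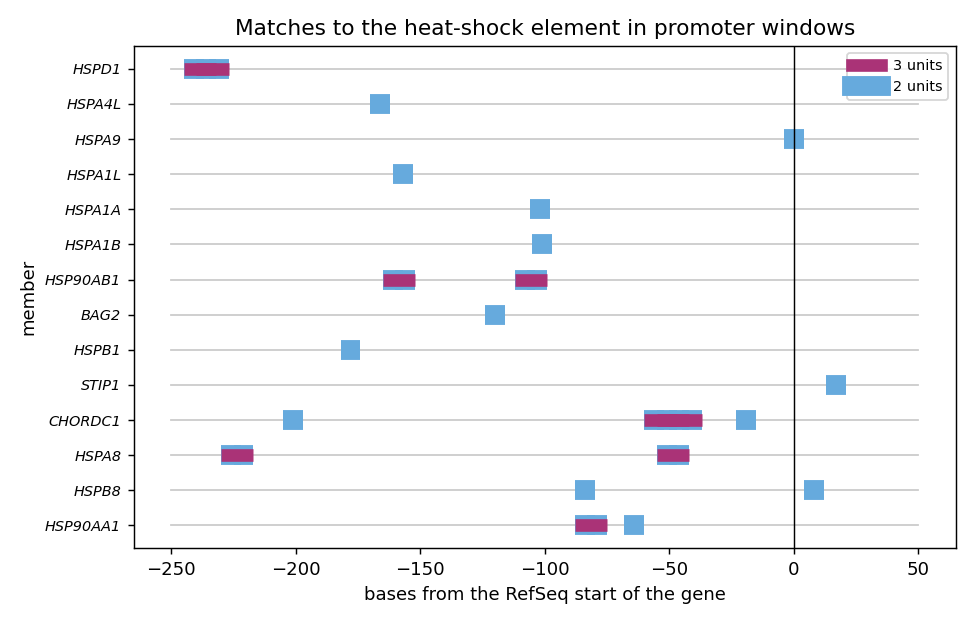
Positions of heat-shock element matches in the promoter windows of the 14 members that hold one, in bases from the RefSeq start. Wide blue bars are 2-unit matches and narrow purple bars 3-unit matches, and only HSPD1, HSP90AB1, CHORDC1, HSPA8 and HSP90AA1 carry purple bars.

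All 38 members were kept by the filter on low counts, so no member dropped out of the comparison. In PBS tumours their mean levels spanned from 535 RPKM for HSP90AB1 to 0.242 RPKM for HSPB8, and 8 members exceeded 100 RPKM whereas 10 were under 10 RPKM. For HSPA1A, HSPA1B and HSPA1L, the exon length behind the deposited RPKM was 5.05, 5.01 and 4.59 times that of the GENCODE annotation. The levels of these 3 genes were therefore recomputed as deposited RPM per annotated exon kilobase. This raised the PBS mean of HSPA1A from 22.5 to 113. Whether their counts also hold reads of further copies was not tested, so the recomputed levels may be too high. The length used for HSPA14 was 2.50 times the annotated one and its deposited value was kept. None of this touches a fold change.

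The constitutive cytosolic chaperones led the order of levels. HSP90AB1, the constitutive HSP90, was followed by HSPA8, the constitutive HSP70, at 436 ± 59.2 RPKM (SD, n = 5 PBS tumours), and their PBS ranges did not overlap. HSP90AA1 (199 ± 21.7 RPKM) and CDC37 (194 ± 16.5 RPKM), the co-chaperone that brings protein kinases to HSP90, came next and could not be ordered. HSPB1, the small heat-shock protein HSP27, stood at 169 ± 47.7 RPKM and HSPD1 at 145 ± 16.7 RPKM. HSPA1A at 113 ± 56.8 and HSPA1B at 105 ± 52.8 RPM per kilobase, both encoding the stress-inducible HSP70, closed the group above 100. This order is approximate, since the annotated length of a gene counts the exons of all its transcripts and exceeded the deposited one for most members. With the annotated length for every member, 6 exceeded 100 RPM per kilobase, namely HSP90AB1 (520), HSPA8 (221), HSP90AA1 (159), HSPA1A (113), CDC37 (107) and HSPA1B (105), whereas HSPB1 had 93.2 and HSPD1 46.4. Of the 37 neighbouring pairs in the order of RPKM, 6 had PBS ranges that did not overlap.

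**Figure D2:**
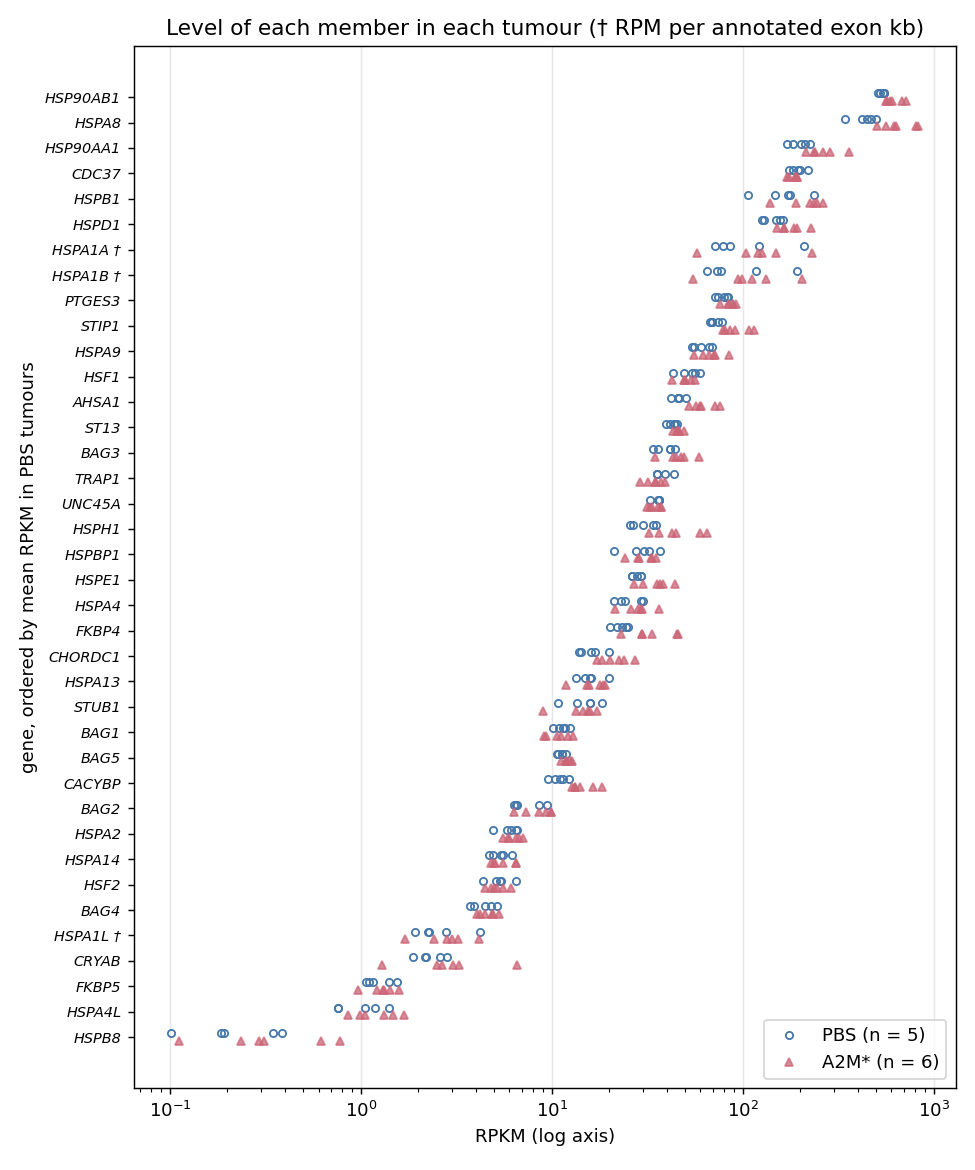
Level of each of the 38 members in each tumour, as RPKM on a log axis, ordered by the mean of the PBS tumours. Open circles are the 5 PBS tumours and triangles the 6 A2M* tumours, and a dagger marks the 3 genes given as RPM per annotated exon kilobase. HSP90AB1 and HSPA8 lie at the top and HSPB8 at the bottom.

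In the comparison of the groups, which addressed the effect of A2M* on gene expression in the tumours, no gene passed an adjusted p of 0.01 or 0.05 with edgeR (0% of 16630 genes tested, 0 of 38 members, smallest adjusted p 0.599). Unadjusted, 1178 genes had p under 0.05, 591 higher and 587 lower in A2M* tumours, and with scaling by library size alone 1022 were higher and 308 lower. DESeq2 called 1 gene at 0.01 (0.00601% of all genes), which was no member, and limma-voom called none. At the looser limit of 0.05, DESeq2 called 23 genes (0.138% of all genes), 2 of them members. Of the members, 29 had a higher and 9 a lower fitted level in A2M* tumours, against 8220 higher and 8410 lower of all genes, and the median log2 fold change was 0.12 for the members and -0.0021 for all genes. At an unadjusted p under 0.05, 11 members were higher (3.55% of all genes) and 0 lower (3.53% of all genes). In 4 members, every A2M* tumour lay above every PBS tumour (0.385% of all genes), and in 0 members below (0.325% of all genes). As the members were chosen with this contrast known, nothing is read from these shares.

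T128 and T131 had the highest summed levels of the members among the A2M* tumours. Leaving them out, a choice made after the data had been seen, therefore tends to lower the difference by itself. Without T112 alone, 30 members were higher and 8 lower, with a median of 0.14. Without T125 and T128, 27 were higher and 11 lower, with a median of 0.13. Without T128 and T131, 23 members were higher and 15 lower, and the median was 0.03. In that fit 8 members were higher at an unadjusted p under 0.05 and 0 lower, beside 2.1% and 1.75% of the 16678 genes tested. The members' summed RPM is scaled by library size alone and weighted to abundant members such as HSP90AB1, HSPA8 and HSP90AA1. It was 10068.9 in T128 and 10028.1 in T131. It was between 7178 and 8409 in the other A2M* tumours and between 6453 and 7392 in PBS tumours. Hence T112 lay within the PBS range and the remaining A2M* tumours above it.

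**Figure D3:**
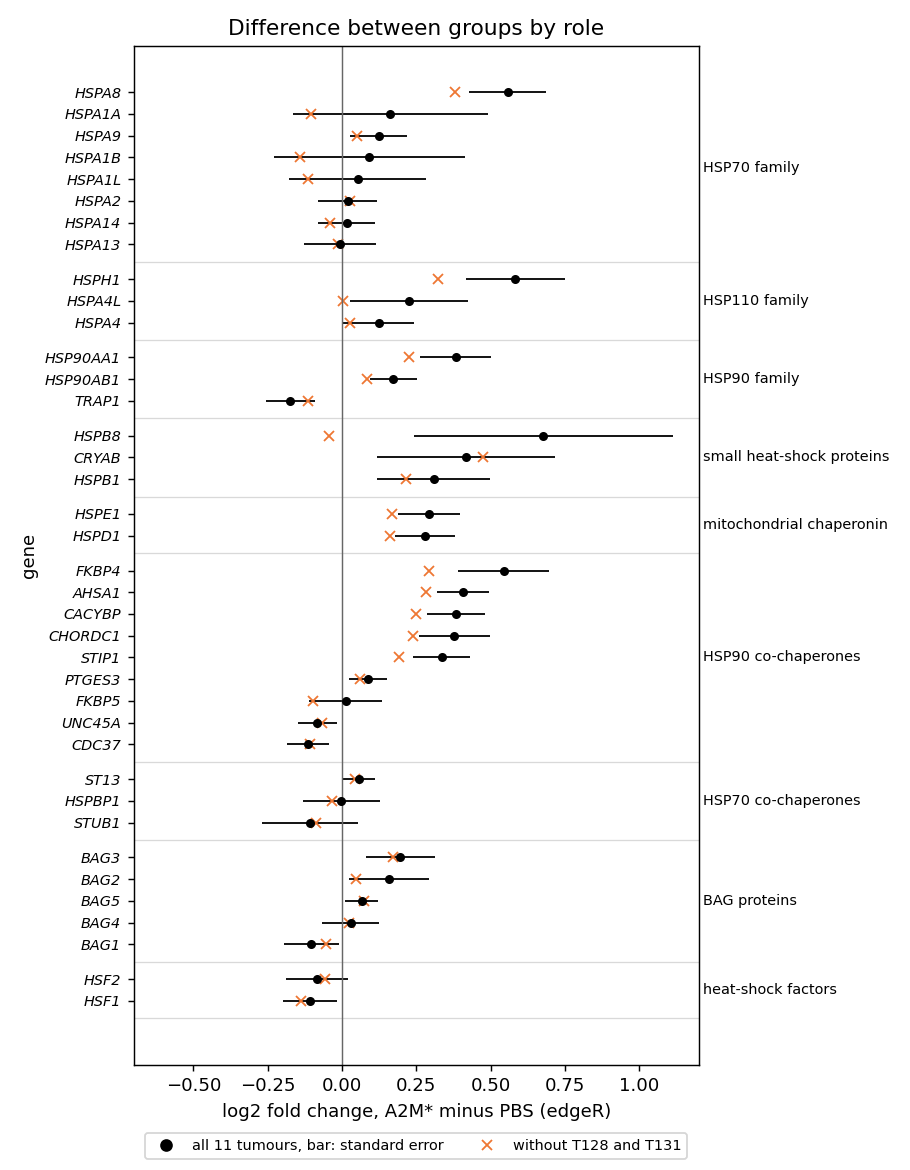
Log2 fold change of each member (A2M* minus PBS, edgeR) by role. Points are fits on all 11 tumours with bars of 1 standard error, and crosses are fits without T128 and T131. Most co-chaperones of HSP90 lie to the right of 0 in both fits, whereas the cross of HSPB8 falls at -0.04.

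In the HSP70 family 7 of 8 members were higher, with a median log2 fold change of 0.07, and HSPA8 stood apart from the others. HSPA8 had 502, 448, 345, 468 and 419 RPKM in T123 to T127, and in A2M* tumours a lowest, median and highest level of 507, 629 and 830 RPKM. All 6 A2M* tumours thus lay above all PBS tumours, with T112 just above T123 and with T131 and T128 highest. The log2 fold change was 0.56 (SE 0.13), and 0.38 without T128 and T131.

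HSPA1A had 71.6, 78.6, 209, 122 and 86.0 RPM per kilobase in T123 to T127 and 57.4, 123.1 and 232 as lowest, median and highest in A2M* tumours. HSPA1B, at 65.1, 73.6, 192, 118 and 77.3 in the PBS tumours and 54.8, 105 and 203 in A2M* tumours, followed it from tumour to tumour. The groups overlapped fully for both, and the highest tumour of each group, T125 among the PBS tumours and T128 among the A2M* tumours, stood well above the others. The log2 fold changes were 0.16 (SE 0.33) and 0.09 (SE 0.32). They turned to -0.08 and -0.15 without T128 and came to 0.52 and 0.44 without T125. HSPA1A and HSPA1B are near-identical copies whose reads can be assigned to either, so their separate values are uncertain. HSPA1L, their neighbour, was also highest in T125 and T128, at 4.20 and 4.17 RPM per kilobase, and its log2 fold change of 0.05 (SE 0.23) was -0.09 without T128 and 0.28 without T125.

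The remaining HSP70 genes differed little. HSPA9, the mitochondrial HSP70, had 61.2 ± 6.42 RPKM in PBS and 68.6 ± 9.67 RPKM in A2M* tumours, a log2 fold change of 0.12 (SE 0.10). HSPA2, HSPA13 and HSPA14 had log2 fold changes of 0.02, -0.01 and 0.02, each smaller than its SE, and that of HSPA13 was 0.01 with upper quartile scaling.

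The HSP110 proteins, which reset HSP70 by nucleotide exchange, were higher in 3 of 3. HSPH1, the inducible HSP110, had 30.2, 25.6, 34.0, 35.3 and 26.7 RPKM in T123 to T127 and a lowest, median and highest level of 32.5, 43.6 and 65.2 RPKM in A2M* tumours. Of the latter, 5 were above every PBS tumour, whereas T112 lay between them. Its log2 fold change of 0.58 (SE 0.17) fell to 0.32 without T128 and T131. HSPA4L and HSPA4 had log2 fold changes of 0.22 (SE 0.20) and 0.12 (SE 0.12), which came to 0.0029 and 0.03 without these tumours.

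In the HSP90 family both cytosolic genes were higher and the mitochondrial TRAP1 was lower. HSP90AA1, the inducible form, had 202, 183, 213, 225 and 171 RPKM in T123 to T127 and 216, 251 and 361 RPKM as lowest, median and highest in A2M* tumours. All A2M* tumours but T112 exceeded the PBS tumours, and T131 was highest. The log2 fold change was 0.38 (SE 0.12).

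HSP90AB1 had 547, 550, 542, 523 and 513 RPKM in T123 to T127 and 562, 599 and 717 RPKM in A2M* tumours. The groups did not overlap on the RPKM scale, though they did after TMM scaling, and the PBS tumours differed little from each other. Its log2 fold change of 0.17 (SE 0.08) was smaller than that of HSP90AA1. The ratio of HSP90AA1 to HSP90AB1 on the RPKM scale was accordingly 0.333 to 0.430 in PBS and 0.378 to 0.504 in A2M* tumours. TRAP1 had 37.9 ± 3.50 RPKM in PBS and 34.6 ± 3.72 RPKM in A2M* tumours, with a log2 fold change of -0.17 (SE 0.08), the most negative of all members.

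Small heat-shock proteins, which bind unfolding clients without ATP, were higher in 3 of 3, yet with the widest spread between tumours of any role. HSPB8, a partner of BAG3 in the selective removal of damaged proteins, had 0.184, 0.385, 0.102, 0.192 and 0.348 RPKM in T123 to T127 and 0.112, 0.301 and 0.779 RPKM in A2M* tumours. Only T131 and T128 exceeded the PBS tumours. Between 5 and 42 reads lay behind each value, and the log2 fold change of 0.68 (SE 0.44), the largest in size, was 0.39 without T131 alone and turned to -0.04 without both.

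CRYAB, which encodes alphaB-crystallin, had 2.20, 2.16, 2.82, 2.59 and 1.88 RPKM in T123 to T127 and 1.29, 2.85 and 6.55 RPKM in A2M* tumours. T130 was highest and T112 lowest of all tumours, so that the A2M* group enclosed the PBS group. The log2 fold change of 0.42 (SE 0.30) was 0.09 with T130 left out. HSPB1 had 173, 147, 238, 107 and 177 RPKM in T123 to T127 and 138, 230 and 263 RPKM in A2M* tumours. Its groups overlapped widely, with T125 above most A2M* tumours and a log2 fold change of 0.31 (SE 0.19), which was 0.18 without T126 and 0.48 without T125.

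The mitochondrial chaperonin genes were higher by a similar amount. HSPD1, the barrel-forming HSP60, had 157, 130, 150, 164 and 125.9 RPKM in T123 to T127 and 151, 176 and 229 RPKM in A2M* tumours. HSPE1, the lid of the barrel, had 29.3, 26.5, 29.5, 27.8 and 26.4 RPKM in PBS and 26.9, 36.1 and 44.3 RPKM in A2M* tumours. In both, 5 A2M* tumours exceeded every PBS tumour, T131 was highest and T112 lay among the PBS tumours. The log2 fold changes were 0.28 (SE 0.10) and 0.29 (SE 0.11). The ratio of HSPD1 to HSPE1 in RPKM was 5.20 ± 0.442 in PBS and 5.19 ± 0.353 in A2M* tumours. Exons of HSPE1 overlap those of HSPD1 on the other strand and those of the readthrough gene HSPE1-MOB4, which had 0 counts in every tumour. Altogether 16 members have exons that overlap another gene of the count table, and the strand setting of the counting is not given in the sources used here.

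Of the co-chaperones of HSP90, 7 of 9 were higher, with a median log2 fold change of 0.34. AHSA1, the activator of the HSP90 ATPase, had 50.4, 42.3, 45.7, 46.2 and 45.6 RPKM in T123 to T127 and 52.6, 60.2 and 75.7 RPKM in A2M* tumours. The groups did not overlap. Its log2 fold change was 0.41 (SE 0.09) and 0.28 without T128 and T131.

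STIP1, also named HOP, which links HSP70 to HSP90, had 77.9, 69.4, 69.4, 74.6 and 67.2 RPKM in PBS and 78.9, 88.2 and 114 RPKM in A2M* tumours. The groups were separated only narrowly, between T123 and T112, and the log2 fold change was 0.34 (SE 0.10). CACYBP, a calcyclin-binding protein of the SGT1 kind, had 11.5, 10.4, 11.0, 12.2 and 9.52 RPKM in PBS and 12.8, 13.6 and 18.4 RPKM in A2M* tumours. Here too the groups did not overlap, with a log2 fold change of 0.38 (SE 0.10).

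FKBP4, an immunophilin of steroid receptor complexes, had 25.02, 20.2, 24.4, 22.0 and 23.3 RPKM in PBS and 23.1, 31.6 and 46.1 RPKM in A2M* tumours. Only T112 lay within the PBS range, T128 and T131 were nearly level at the top, and the log2 fold change of 0.54 (SE 0.15) was 0.29 without these. CHORDC1, a zinc-binding partner of HSP90, had 16.0, 13.8, 16.8, 19.9 and 14.3 RPKM in PBS and 17.3, 21.4 and 27.3 RPKM in A2M* tumours. T112 and T132 lay below T126 alone among the PBS tumours, and the log2 fold change was 0.38 (SE 0.12). The other co-chaperones of HSP90 differed less. PTGES3, the p23 that stabilizes closed HSP90, and FKBP5 had log2 fold changes of 0.09 (SE 0.06) and 0.01 (SE 0.12), whereas UNC45A, a myosin chaperone, and CDC37 had -0.08 (SE 0.07) and -0.11 (SE 0.07).

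For the co-chaperones of HSP70, the BAG proteins and the heat-shock factors the differences were small. ST13, which stabilizes the ADP state of HSP70, had a log2 fold change of 0.06 (SE 0.06), HSPBP1, a nucleotide exchange factor, of -0.0018 (SE 0.13; 0.01 with upper quartile scaling), and STUB1, the ubiquitin ligase CHIP, of -0.11 (SE 0.16). BAG3, which directs HSP70 clients to autophagy, had 41.6, 41.5, 33.8, 44.02 and 36.2 RPKM in T123 to T127 and 34.8, 46.1 and 59.2 RPKM in A2M* tumours. Its highest level was in T112, and its groups overlapped, with a log2 fold change of 0.20 (SE 0.12) that was 0.11 without T112. BAG1, BAG2, BAG4 and BAG5 had log2 fold changes between -0.10 and 0.16. HSF1, the main activator of the heat-shock response, had 52.5 ± 6.29 RPKM in PBS and 50.2 ± 4.51 RPKM in A2M* tumours (log2 fold change -0.11, SE 0.09), and HSF2 had -0.08 (SE 0.10).

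Set beside the promoter windows, the 5 members with a 3-unit match had log2 fold changes between 0.17 and 0.56 with a median of 0.38. The 9 members with only a 2-unit match had a median of 0.16, and 9 of 9 were higher, beside 49.4% of all genes. Of these, HSPA1A, HSPA1B, HSPA1L and HSPB8 turned to -0.10, -0.14, -0.11 and -0.04 without T128 and T131. HSPA4L, HSPA9, HSPB1, BAG2 and STIP1 remained higher, between 0.0029 and 0.22. HSPA1A and HSPA1L share their match, and reads of HSPA1A and HSPA1B can be assigned to either. The 17 members with no match had a median of 0.02, and 10 of 17 were higher. HSPH1, AHSA1 and CACYBP belong to the last group although their fold changes were among the larger ones, with 0.58, 0.41 and 0.38. HSPE1 (0.29) was also counted there, although the match assigned to HSPD1 lay upstream of its start, outside its window. The 7 members without a window had log2 fold changes between -0.11 (HSF1) and 0.54 (FKBP4) and are left out of this comparison. The comparison is a description of members chosen on the same contrast and was not tested.

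Counted tumour by tumour, the members above every PBS tumour numbered 21 in T128, 12 in T129, 15 in T130, 21 in T131, 11 in T132 and 9 in T112. Over all genes the share above every PBS tumour was 15.3% in T128, 13.9% in T129, 16.5% in T130, 23.0% in T131, 22.5% in T132 and 16.8% in T112. Members below every PBS tumour numbered 1 in T128 and T129, 4 in T130 and T131, 6 in T132 and 7 in T112, while the share of all genes was between 13.9% and 22.8% per A2M* tumour. T131 held the highest level of 12 members and T128 that of 9, a count that was not made over all genes. The spread within groups was close to that of other genes, as the median SD of log2 CPM was 0.199 for the members and 0.185 for all genes tested, with 20 of 38 members above the latter.

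**Figure D4:**
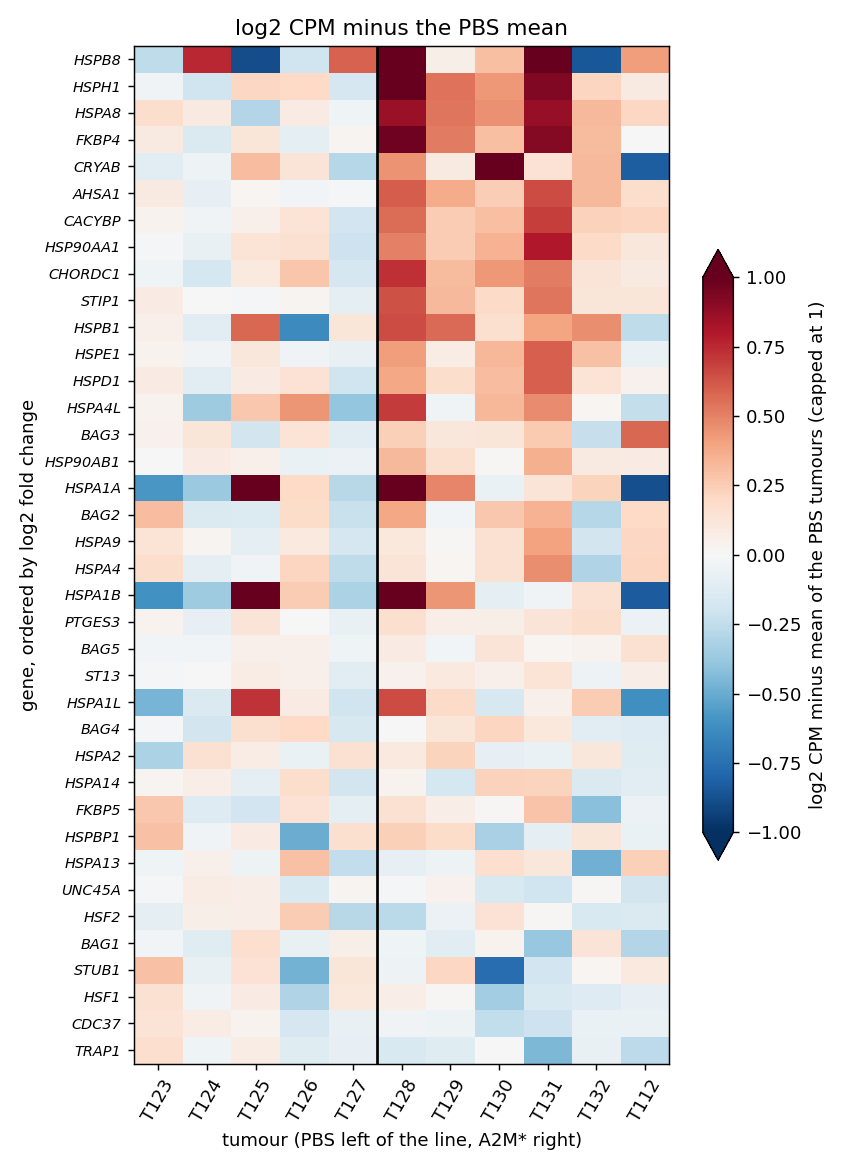
Log2 CPM of each member in each tumour minus the mean of the PBS tumours, with colours capped at 1, ordered by log2 fold change. PBS tumours are left of the line and A2M* tumours right. The upper rows are darkest in T128 and T131, and HSPA1A, HSPA1B and HSPA1L are dark in T125 and T128.

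Covariation inside the groups was not used in choosing the members and was tested for 6 pairs of genes on log2 CPM with the group mean removed (11 tumours, two-sided exact permutation of the tumours within groups, adjusted over the 6 pairs). HSPA1A and HSPA1B varied together with r = 0.996 (exact p = 1.16e-05, the smallest these permutations can give; adjusted 6.94e-05; Spearman's rho 1). Reads of either copy can be assigned to the other, and the part of this in the relation was not tested. HSPA1A also varied with DNAJB1, the DNAJ partner of inducible HSP70, which is no member (r = 0.901, exact p = 0.000683, adjusted 0.00205; rho 0.873, exact p = 0.00164). Without T112 and T128, the tumours farthest from the median, r was 0.928 (exact p = 0.00833). DNAJB1 had 88.8, 87.0, 164, 126.4 and 98.0 RPKM in T123 to T127 and 78.0, 94.1 and 133 RPKM in A2M* tumours, hence with its peaks again in T125 and T128.

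For HSPD1 and HSPE1, r was 0.822 (exact p = 0.0039, adjusted 0.0078) and rho was 0.718 (exact p = 0.0252, adjusted 0.0505). Without T131 and T127, r was 0.717 (exact p = 0.0601), so that the relation rested in part on these tumours. Exons of these genes overlap on opposite strands, and the part of this in the relation was not tested. The pairs HSPA8 with HSPH1 (r = 0.688, exact p = 0.0499, adjusted 0.0628; rho 0.591) and HSP90AA1 with HSP90AB1 (r = 0.680, exact p = 0.0523, adjusted 0.0628; rho 0.582) did not pass an adjusted p of 0.05. Without their 2 farthest tumours r was 0.119 and 0.371. BAG3 with HSPB8 gave r = 0.545 (exact p = 0.119, adjusted 0.119; rho 0.591). Over all 11 tumours without removing the group mean, the coefficients were between 0.600 and 0.995.

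**Figure D5:**
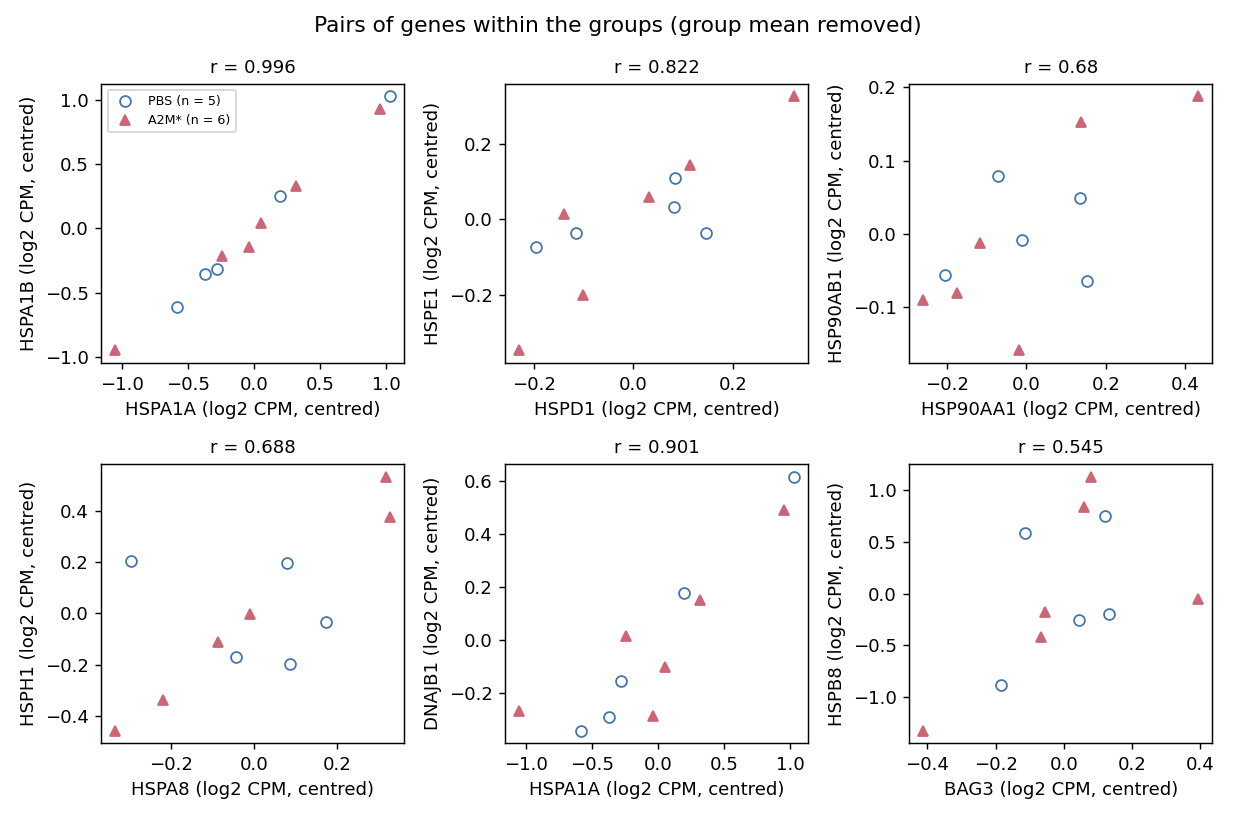
Log2 CPM of 6 pairs of genes after removal of the group mean. Circles are the 5 PBS tumours and triangles the 6 A2M* tumours, and r is Pearson's coefficient within the groups. HSPA1A with HSPA1B and with DNAJB1 form the tightest lines.

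Chaperone genes left out of the group were listed for comparison, and of 40 such genes 31 were kept by the filter. Of these, 19 were higher and 12 lower, with a median log2 fold change of 0.01. At an unadjusted p under 0.05, 5 were higher (3.55% of all genes) and 1 lower (3.53% of all genes). DNAJA1, a DNAJ partner of HSPA8, had 77.9 ± 7.92 RPKM in PBS and 109 ± 17.8 RPKM in A2M* tumours without overlap of the groups (log2 fold change 0.44, SE 0.10). PPID, an immunophilin partner of HSP90, had a log2 fold change of 0.33 (SE 0.09) and HSPA5, the HSP70 of the endoplasmic reticulum, of 0.33 (SE 0.12). HSPA6, a strictly inducible HSP70, had -0.41 (SE 0.27) and was highest in T125, at 15.2 RPKM. DNAJB1 had -0.26 (SE 0.18).

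Other gene lists, also chosen with earlier results of these data known, were set beside the members. All 15 genes of a hypoxia list had lower fitted levels in A2M* tumours (median log2 fold change -0.58). At an unadjusted p under 0.05, 11 of these were lower, beside 3.53% of all genes. The mean z-score of this list was between -0.60 and 1.42 in PBS and between -1.60 and 0.25 in A2M* tumours, and it was lowest in T131 (-1.60) and T128 (-1.08). Whether it had a part in the chaperone levels was not tested. Markers of epithelial cells (KRT8, KRT18, KRT19, EPCAM and CDH1) summed to between 2116 and 2599 RPM in PBS and between 1734 and 2542 RPM in A2M* tumours. Fitted levels were lower for 5 of 5, for 0 at an unadjusted p under 0.05. Their mean z-score was between -0.35 and 1.16 in PBS and between -2.10 (T131) and 0.78 (T128) in A2M* tumours. The prostate markers KLK2 and KLK3 had at most 3 counts in any tumour. Markers of host stroma, blood and muscle summed to between 389 and 736 RPM in PBS and between 386 and 994 RPM in A2M* tumours, with 8 higher and 8 lower of the 16 tested, and the fibroblast marker DCN had at most 3 counts. The part of such reads in the result was not tested. Lists of immediate early genes (4 of 10 higher), proliferation genes (8 of 12 higher) and clock genes (10 of 14 higher) had median log2 fold changes of -0.06, 0.03 and 0.12.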

How the data were processed

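RNA of 11 PC-3 xenograft tumours (5 PBS, 6 A2M*) was sequenced from TruSeq libraries. The authors extracted reads with bcl2fastq 1.8.4, sorted them with xenome, mapped the human reads to hg19 with TopHat2 and counted them per RefSeq gene with featureCounts. Counts were deposited raw, as whole numbers. The deposited RPM are counts per 1e+06 counts of the tumour, and the deposited RPKM divide RPM by the exon length. Versions of the other tools and the strand setting are not given in the sources used here.

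Counts were filtered with filterByExpr, scaled with TMM and compared between the groups by quasi-likelihood fits (edgeR 4.0.16, R 4.3.3) without covariates, at a Benjamini-Hochberg adjusted p of 0.01 over 16630 genes. The SE was the log2 fold change divided by the square root of F. Log2 CPM used a prior count of 2. The fit was also run on simulated data in which 200 genes differed. Replicates are separate tumours, and 3 counts equalled 0.0836 to 0.177 RPM. The members and all gene lists were chosen with earlier results of these data known. Values per tumour are given for the 12 members with the largest fold change, the 3 highest in level and the genes of the 6 pairs, and of the chaperone genes outside the group the 4 with the largest fold change are named. Alternatives were RLE, upper quartile and library size scaling, other filters, DESeq2 1.42.0, limma-voom (limma 3.58.1), log2(RPKM + 0.1), and tumours left out. Correlations were computed in Python 3.11.15 with scipy 1.17.1. Exon lengths were compared with GENCODE on GRCh37, and promoter windows were taken from RefSeq (GRCh38.p14). Figures were drawn with matplotlib 3.10.9.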

Additional observations from a re-analysis of the deposited data

Results flagged for a closer look

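Within groups, 88 sets of values were searched for a tumour far from the others, of which chance would give about 4.4, and 2 were found. CRYAB had 6.55 RPKM in the A2M* tumour T130, while the other A2M* tumours had 1.29 to 3.25 RPKM. UNC45A had 32.8 RPKM in the PBS tumour T126, while the other PBS tumours had 36.1 to 36.4 RPKM.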

How the results depend on the processing

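No gene passed the adjusted p of 0.01 under any scaling, filter, left-out tumour or limma-voom, whereas DESeq2 called 1 gene. There were 241 genes for which edgeR and DESeq2 both gave an unadjusted p no larger than 0.01. With 1 tumour left out, the members lower in A2M* tumours numbered 8 to 13 and their median log2 fold change was 0.07 to 0.18, and without T128 and T131 (chosen after seeing the data) 15 were lower. Of 759 fold changes of members under alternatives, 0 moved by over 1 SD between tumours and 48 changed sign, in 11 members, of which HSPB8 alone had a fold change above 0.25 on the log2 scale.

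With scaling by library size alone and with log2(RPKM + 0.1), the within-group r was 0.748 in both for HSP90AA1 with HSP90AB1, and 0.703 and 0.704 for HSPA8 with HSPH1, each past the adjusted p of 0.05. Over all 11 tumours without removal of the group mean, these pairs gave 0.819 and 0.8495, and BAG3 with HSPB8 0.600. HSPD1 with HSPE1 gave 0.717 without the 2 farthest tumours and was no longer past it. With 1 tumour left out, r was 0.693 (without T131, where the adjusted exact p was 0.0507) to 0.888 for HSPD1 with HSPE1, 0.430 (without T131) to 0.782 (without T126) for HSP90AA1 with HSP90AB1, 0.563 (without T128) to 0.930 (without T125) for HSPA8 with HSPH1, and 0.218 (without T132) to 0.751 (without T112) for BAG3 with HSPB8. It was 0.844 to 0.946 for HSPA1A with DNAJB1 and 0.995 to 0.998 for HSPA1A with HSPA1B. As deposited, the PBS means of HSPA1A, HSPA1B and HSPA1L were 22.5, 21.0 and 0.586 RPKM. No paired analysis was possible because the groups share no tumour numbers. The number of tumours limits the precision, and HSPB8 rested on only 5 to 42 reads per tumour.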
